A study of Sus scrofa with 10 samples.

Results

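ASNS, SESN2, FGF21 and CEBPG are the genes of the amino acid stress response through ATF4 that could be read in this liver expression table. They were chosen by name: 8 symbols were listed (ATF4, ASNS, TRIB3, DDIT3, SESN2, CHAC1, FGF21 and CEBPG), and a deposited Ensembl gene identifier was matched by its pig gene name to 4 of them, among 25009 identifiers in all. ATF4 itself, the pseudokinase gene TRIB3, DDIT3, which encodes the factor CHOP, and the glutathione-degrading enzyme gene CHAC1 found no match and are not analysed here. The matched identifiers were ENSSSCG00000015340 for ASNS, ENSSSCG00000029438 for SESN2, ENSSSCG00000003140 for FGF21 and ENSSSCG00000002867 for CEBPG.

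The study sequenced RNA from the livers of male pigs that diverged in growth and fatness, with 5 samples labelled high and 5 labelled low. All samples carried the age label 175, whose unit is not given, and the tissue was collected at slaughter and snap-frozen. No treatment, genotype, breed, diet or fasting time is given for either group in the sources used here. Whether the samples are separate animals is not stated, so every p-value speaks of the spread among these samples, which may be technical.

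When a cell runs short of an amino acid, uncharged transfer RNA activates the kinase GCN2, which phosphorylates the translation initiation factor eIF2. General translation then slows while the message of ATF4, a basic leucine zipper transcription factor, is translated more. Other kinases feed the same step: PERK (EIF2AK3) responds to unfolded protein in the endoplasmic reticulum, PKR (EIF2AK2) to double-stranded RNA and HRI (EIF2AK1) to heme deficiency. ATF4 binds DNA with partners of the C/EBP family and raises genes of amino acid synthesis, amino acid import and transfer RNA charging. In liver the pathway is known for responses to dietary protein and for the hormone FGF21. ATF4 is controlled mainly at translation, so the level of its own message would measure its activity only in part. Message levels of other genes of the pathway do not measure its translational step.

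The deposited values say little about the size of the libraries. RPKM, a read density corrected for gene length and library size, added up to 539327 to 567220 in each library, with 16195 to 16802 genes above 0. Since RPKM is already scaled by library size, these sums do not measure it. Against high replicate 1 the relative depth, read from the steps of the lowest values, was 0.748 to 1.05. It rested on 4 to 23 genes per library, and the absolute depth is unknown. Hepatocyte markers (6 of 8 found, led by albumin) summed to 56774 to 75645 RPKM in high and 48028 to 76221 in low. Nervous system markers (6 of 6 found, led by GFAP by mean RPKM) summed to 5.63 RPKM in high replicate 1 and 6.64 in high replicate 5, against 0.02 to 0.44 in the other libraries. T and NK cell markers (6 of 7 found) summed to 16.7 to 30.7 RPKM in high and 23.3 to 48.0 in low.

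The high and low groups were compared to see whether growth and fatness go with another level of this pathway in liver. None of the readable members passed. CEBPG had the higher mean in high and FGF21 the higher mean in low, both with overlapping groups, while ASNS and SESN2 had nearly equal means. The test was limma on log2(RPKM + 1) for all 10931 genes whose mean reached 1 RPKM, with a Benjamini-Hochberg adjustment over all of them. SESN2, FGF21 and CEBPG entered that test. ASNS lay under 1 RPKM and was compared by an exact permutation test. Of all genes tested, 0% had an adjusted p under 0.05 and 4.55% had an unadjusted p under 0.05. Among the 3 members tested 0 had an unadjusted p under 0.05.

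**Figure D1:**
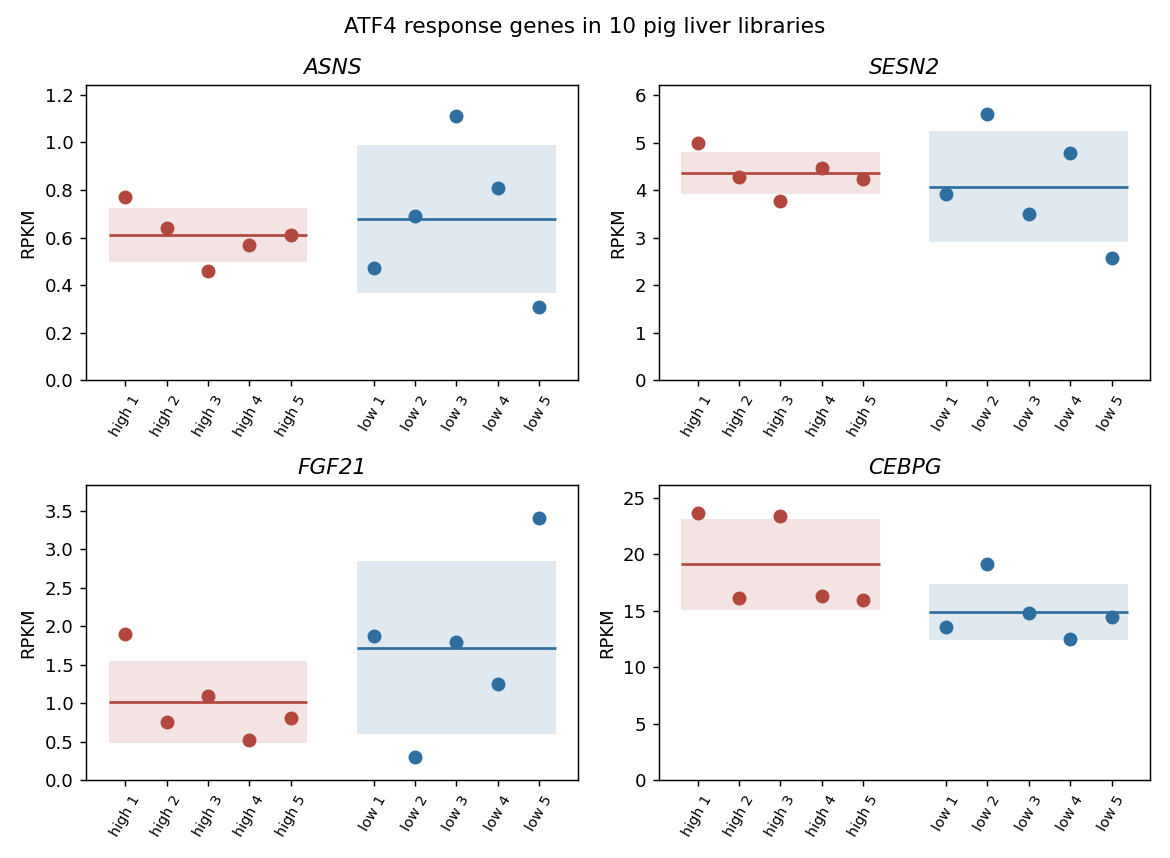
RPKM (y axis) of ASNS, SESN2, FGF21 and CEBPG in each library (x axis, high replicates 1 to 5 and low replicates 1 to 5), with 1 point per library, the group mean as a line and 1 SD on either side as a band. The groups overlap in each panel; CEBPG stands highest in high replicates 1 and 3 at 23.67 and 23.42 RPKM, and FGF21 in low replicate 5 at 3.4 RPKM.

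CEBPG encodes a small basic leucine zipper protein of the C/EBP family that pairs with ATF4 on DNA. It was the most abundant of the readable members, higher per length than 76.4% of all genes tested by mean RPKM. In the high group CEBPG measured 23.67, 16.14, 23.42, 16.34 and 15.94 RPKM in replicates 1 to 5. In the low group it measured 13.59, 19.1, 14.84, 12.48 and 14.42 RPKM. High replicates 1 and 3 lay above the rest, low replicate 2 came next, and the other high libraries sat just above the other low ones. Because of low replicate 2 the groups overlapped, with the high library above the low one in 22 of 25 pairs.

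The mean level of CEBPG was 19.1 ± 4.06 RPKM in the high group and 14.9 ± 2.52 in the low group (SD, n = 5 for either). The log2 fold change was 0.33 (SE 0.16), with a 95% interval from -0.015 to 0.68 and an adjusted p of 0.961 in limma. The difference did not exceed the spread between libraries by that test (unadjusted p = 0.0592 in limma). In a piece of liver, more cells of a type and more RNA per cell cannot be told apart. Without low replicate 2 the log2 fold change was 0.42, and without either high replicate 1 or high replicate 3 it was 0.25. Without high replicates 1 and 5 together, the libraries with the highest sums of the nervous system markers, it was 0.30. None of these passed the threshold after adjustment. In the authors' deposited table CEBPG had a signed fold of -1.29 and a p of 0.08, the negative sign going with the higher mean in high.

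The libraries in which CEBPG was high lay at one end of the main axis of the whole transcriptome. The leading principal component over all genes tested accounted for 42.9% of the variance. High replicates 1 and 3 and low replicate 2, the libraries with the most CEBPG, had scores of 28.6, 37.2 and 32.6 on it. Low replicate 4, with the least CEBPG, had the opposite extreme of -40.5. The other libraries lay between -18.2 and 0.945. The part of this axis in the difference of CEBPG between the groups was not tested.

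The next protein-coding gene beside CEBPG in RefSeq's pig assembly Sscrofa11.1 is CEBPA, which encodes the main C/EBP factor of hepatocytes. Over the libraries the level of CEBPA ran from 4.95 to 15.01 RPKM, with a median of 10.31. Its highest values, 15.01 and 14.22 RPKM, were in high replicate 2 and low replicate 4, and its lowest, 4.95 and 6.18, in low replicates 5 and 2. The libraries highest in CEBPG, high replicates 1 and 3, held 8.69 and 10.96 RPKM of CEBPA. CEBPA had means of 11.5 ± 2.58 RPKM in the high libraries and 9.33 ± 3.92 in the low ones and did not pass (adjusted p = 0.961 in limma).

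FGF21 encodes a hormone that the liver releases under protein restriction and, in rodents, under fasting. It was low, higher per length than 6.75% of the genes tested, and the most variable of the readable members. In the high group FGF21 measured 1.9, 0.75, 1.09, 0.52 and 0.8 RPKM in replicates 1 to 5. In the low group it measured 1.87, 0.3, 1.79, 1.25 and 3.4 RPKM. Both the highest and the lowest library belonged to the low group, replicates 5 and 2, and they differed 11.3-fold. High replicate 1 stood among the low libraries, and the other high libraries lay at or below 1.09 RPKM.

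The SD of FGF21 over all libraries was 0.52 on the log2(RPKM + 1) scale, larger than in 90.3% of the genes tested, where the median was 0.26. Its mean level was 1.01 ± 0.536 RPKM in the high group and 1.72 ± 1.13 in the low group (SD, n = 5 for either). The log2 fold change was -0.37 (SE 0.29), with a 95% interval from -0.998 to 0.27 and an adjusted p of 0.961 in limma. Single low libraries set its size: without low replicate 5 it was -0.17, and without low replicate 2 it was -0.61, neither past the threshold after adjustment. With 0.1 added to RPKM in place of 1, the log2 fold change of FGF21 was -0.53. The authors' deposited table gave FGF21 a signed fold of 1.74, which is not a log2 value, and a p of 0.28.

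SESN2 encodes Sestrin 2, a leucine-binding protein that restrains the growth kinase complex mTORC1. In the high group SESN2 measured 4.99, 4.28, 3.77, 4.47 and 4.24 RPKM in replicates 1 to 5. In the low group it measured 3.92, 5.6, 3.49, 4.78 and 2.58 RPKM. As for FGF21, the extremes were both low libraries, but in the opposite order: replicate 2 was the highest and replicate 5 the lowest. All 5 high libraries fell inside the range of the low ones.

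The mean level of SESN2 was 4.35 ± 0.441 RPKM in the high group and 4.07 ± 1.16 in the low group (SD, n = 5 for either). The log2 fold change was 0.10 (SE 0.16), with a 95% interval from -0.24 to 0.45 and an adjusted p of 0.974 in limma. It took the other sign, -0.014, without low replicate 5. Its SD over all libraries, 0.25 on the log2(RPKM + 1) scale, was larger than in 46.3% of the genes tested. The authors' deposited table gave SESN2 a signed fold of -1.09 and a p of 0.45.

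ASNS encodes asparagine synthetase, which makes asparagine from aspartate and glutamine and is a classic transcriptional target of ATF4. In the high group ASNS measured 0.77, 0.64, 0.46, 0.57 and 0.61 RPKM in replicates 1 to 5. In the low group it measured 0.47, 0.69, 1.11, 0.81 and 0.31 RPKM. The highest and lowest libraries were again both in the low group, replicates 3 and 5, and enclosed all 5 high libraries. The mean level was 0.61 ± 0.112 RPKM in the high group and 0.678 ± 0.309 in the low group (SD, n = 5 for either). The difference of mean log2(RPKM + 1) was -0.043, with an exact two-sided permutation p of 0.746, where 252 assignments allow no p below 0.00794. It was 0.045, of the other sign, without low replicate 3. The authors' deposited table gave ASNS a signed fold of 1.05 and a p of 0.82.

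By mean RPKM the members stood in the order CEBPG, SESN2, FGF21 and ASNS. CEBPG exceeded SESN2, and SESN2 exceeded ASNS, in every library. FGF21 and ASNS did not separate: FGF21 was the higher in high replicates 1 to 3 and 5 and in low replicates 1, 3, 4 and 5, and ASNS in high replicate 4 and low replicate 2. SESN2 exceeded FGF21 in all libraries but low replicate 5, where FGF21 measured 3.4 and SESN2 2.58 RPKM. That library held the least ASNS and SESN2 and the most FGF21.

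Whether the members varied together over the livers was read from the 6 pairs they form. Over the 10 libraries 0 pairs passed after adjustment over the 6 relations. The largest coefficient was negative: SESN2 and FGF21 had a Pearson r of -0.74 (permutation p = 0.0153, adjusted p = 0.0920) and a Spearman rho of -0.49 (permutation p = 0.155, adjusted p = 0.498). Without low replicates 2 and 5, the libraries farthest from the median of SESN2, r was -0.16, so the relation rests on those libraries. Within the low group r was -0.96 and within the high group 0.43, each over 5 libraries and given without a test. Of all pairs of tested genes 2.26% had an r at least as negative. Without high replicate 1 r was -0.89, with an adjusted p of 0.0113 by an exact permutation test. Of the libraries left out in turn it gave the most negative r. The adjustment covered the 6 pairs and not the choice of library, so this p is not support for the pair.

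**Figure D2:**
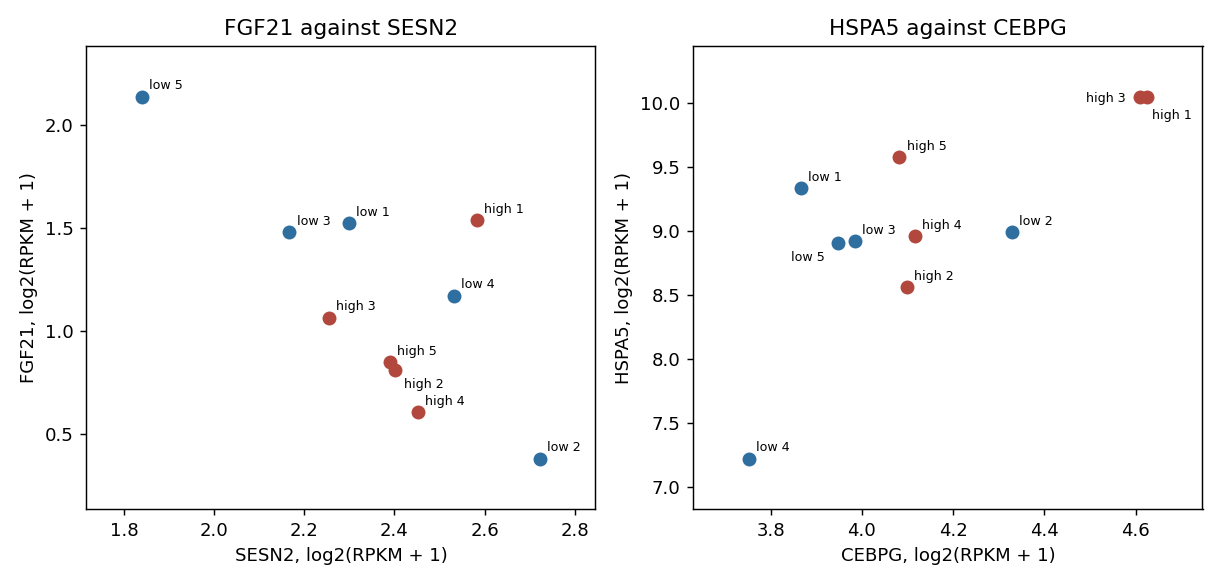
Left, FGF21 (y axis) against SESN2 (x axis), and right, HSPA5 (y axis) against CEBPG (x axis), all as log2(RPKM + 1), with 1 labelled point per library, high in red and low in blue. On the left low replicates 5 and 2 mark the ends of a Pearson r of -0.74; on the right high replicates 1 and 3 and low replicate 4 mark the ends of an r of 0.75.

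ASNS and SESN2 had a Pearson r of 0.44 (permutation p = 0.206, adjusted p = 0.617) and a Spearman rho of 0.48 (permutation p = 0.166, adjusted p = 0.498). Without low replicates 3 and 5, the farthest from the median of ASNS, r was 0.79. Low replicate 3 had the highest ASNS and the second lowest SESN2, and without it r was 0.90 (adjusted p = 0.00648 by an exact permutation test). Of the libraries left out in turn it gave the highest r. The adjustment did not cover that choice, so this p is not support for the pair. Without low replicate 5 r was 0.00036. A Pearson r of at least 0.44 was found in 23.3% of all pairs of tested genes.

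The other 4 pairs had Pearson coefficients between -0.22 and 0.31. CEBPG and SESN2 had an r of 0.31 (permutation p = 0.383, adjusted p = 0.680) and a rho of 0.38 (permutation p = 0.276, adjusted p = 0.523). CEBPG and FGF21 had -0.22 (permutation p = 0.540, adjusted p = 0.680) and a rho of -0.33 (permutation p = 0.349, adjusted p = 0.523). ASNS had -0.21 with FGF21 (permutation p = 0.566, adjusted p = 0.680) and -0.039 with CEBPG (permutation p = 0.915, adjusted p = 0.915), with rho of -0.12 and -0.018 (permutation p = 0.759 and 0.972, adjusted p = 0.910 and 0.972). Without the 2 farthest libraries these 4 coefficients were 0.10, 0.039, -0.027 and -0.083 in the same order. The coefficients of the 6 pairs thus had both signs.

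The members were also set against HSPA5, which encodes the most abundant chaperone inside the endoplasmic reticulum (BiP), and GPT2, the mitochondrial alanine aminotransferase and a reported ATF4 target, in 8 relations of which 0 passed. HSPA5 and GPT2 were both known from earlier results of these data when chosen, which the p-values do not take into account. CEBPG and HSPA5 had a Pearson r of 0.75 (permutation p = 0.0107, adjusted p = 0.0855) and a rho of 0.64 (permutation p = 0.0542, adjusted p = 0.224). An r at least as high was found in 4.48% of all pairs of tested genes. Without high replicates 1 and 3, the libraries farthest from the median of CEBPG, r was 0.50, and within groups it was 0.82 in high and 0.50 in low. Without low replicate 1 r was 0.84 and without low replicate 2 it was 0.77 (adjusted p = 0.0278 and 0.0463 by exact permutation tests). These adjustments covered the 8 relations and not the choice of the library left out, so they are not support for the pair. HSPA5 was likewise highest in high replicates 1 and 3, at 1057.14 and 1059.87 RPKM, and lowest in low replicate 4, at 148.37. Both genes followed the leading principal component of all genes tested, with a Pearson r of 0.88 for CEBPG and 0.79 for HSPA5. The part of that axis in their relation was not tested.

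CEBPG and GPT2 had a Pearson r of 0.65 (permutation p = 0.0431, adjusted p = 0.173) and a rho of 0.64 (permutation p = 0.0560, adjusted p = 0.224). This relation did not hold within the groups alike: r was 0.71 in high and -0.38 in low. It was 0.36 with group means removed and 0.17 without high replicates 1 and 3. Low replicate 2 had the most CEBPG of its group and the least GPT2 of all libraries. Without it r was 0.88 (adjusted p = 0.00110 by an exact permutation test). Of the libraries left out in turn it gave the highest r. The adjustment did not cover that choice, so this p is not support for the pair. SESN2, FGF21 and ASNS had Pearson coefficients between -0.27 and 0.074 with these genes, with adjusted p = 0.921 for each by permutation. For SESN2 and GPT2, with an r of -0.054 over all libraries, r was -0.47 with group means removed, -0.88 within low and -0.12 within high. For FGF21 and GPT2, with an r of -0.036, it was 0.56 with group means removed, 0.81 within low and 0.45 within high. FGF21 and HSPA5, with an r of 0.074, had 0.75 within high and 0.13 within low. These values within groups, each over 5 libraries, are given without a test.

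The tested genes with a symbol whose level followed CEBPG, FGF21 and SESN2 most closely over the 10 libraries are given as a description, with no test, since they were picked for the likeness; ASNS, under the filter, was left out. CEBPG was followed by the RNA helicase gene DDX3X (r = 0.95), the histone chaperone gene HIRA (r = 0.94) and the Polycomb gene PHC3 (r = 0.94). Their levels ran from 42.36 to 76.29 RPKM, from 7.73 to 18.47 and from 1.75 to 2.58. FGF21 was followed by PDK4, the kinase that shuts off pyruvate dehydrogenase (r = 0.83, 46.43 to 94.43 RPKM), ZC3H13 (r = 0.80) and PLEKHG6 (r = 0.77). SESN2 was followed by ZCCHC14 (r = 0.96), IRAK4, a kinase of Toll-like receptor signalling (r = 0.94), and the co-chaperone gene SGTA (r = 0.92).

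The wider pathway was read from 8 lists of 107 genes in all, of which 78 were found by name and 68 tested. None of the 68 passed in either direction, against 0% of all genes tested, and 3 had an unadjusted p under 0.05 (GPT2, DNAJB9 and PPARA), where 4.55% of all genes tested did. The median log2 fold change of all genes tested was -0.00492, and 48.8% of them had the higher mean in high.

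**Figure D3:**
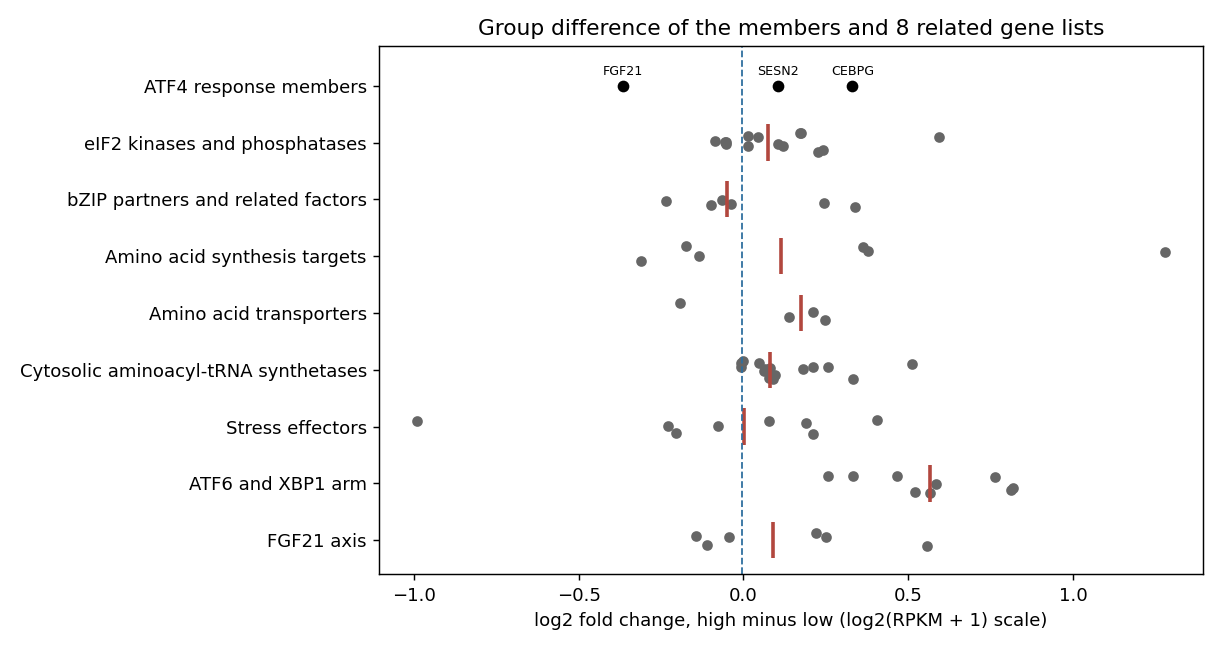
Log2 fold change of high minus low on the log2(RPKM + 1) scale (x axis) of each tested gene, by list (y axis); grey points are genes, red bars are list medians, the dashed line is the median of all genes tested, and black points are the tested members. The list of the ATF6 and XBP1 arm has its median at 0.57, while the medians of the other lists lie between -0.051 and 0.17; no gene passed the test.

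The list around eIF2 holds its kinases, the phosphatase subunits that reverse them, and subunits of eIF2 and of its exchange factor eIF2B. It also holds GCN1, IMPACT, NCK1 and DNAJC3. All 14 genes found were tested, and 0 passed in either direction. Of them 10 had the higher mean in high, where 48.8% of all genes tested did, and the median log2 fold change was 0.074. Among the kinases EIF2AK1 was the most even, with 12.1 ± 0.895 RPKM in high against 12.6 ± 0.774 in low and an SD over libraries lower than in all but 1.14% of the genes tested. EIF2AK3 (PERK) had 5.12 ± 1.16 and 4.16 ± 0.869 RPKM, its highest values, 6.06 and 6.62, lying in high replicates 1 and 3. EIF2AK2 (PKR) ran from 1.62 RPKM in low replicate 4 to 10.54 in low replicate 2, a 6.51-fold range, with group means of 5.73 ± 2.55 and 5.21 ± 3.27. The gene of GCN2, EIF2AK4, found no match and is not analysed here. Of the phosphatase subunits, the stress-induced PPP1R15A had 6.49 ± 0.980 RPKM in high against 7.10 ± 1.86 in low, and the constitutive PPP1R15B had 18.1 ± 2.63 and 15.4 ± 2.74. DNAJC3, which restrains PERK and PKR, had 69.4 ± 22.03 and 47.2 ± 19.9 RPKM. Its log2 fold change was the largest of this list, 0.59 (adjusted p = 0.961 in limma). Like HSPA5, it was highest in high replicates 1 and 3 and lowest in low replicate 4. EIF2S2, the beta subunit of eIF2, had 56.8 ± 13.5 and 50.8 ± 15.8 RPKM.

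Of the leucine zipper factors related to ATF4, 7 of 13 were found and 6 tested, with 0 passing in either direction, 2 with the higher mean in high and a median log2 fold change of -0.051. ATF5, a close relative of ATF4 that is abundant in liver, had the highest level in the list, 405 ± 114 RPKM in high and 441 ± 167 in low. It ran from 195.16 RPKM in low replicate 2 to 646.49 in low replicate 4, while CEBPG was high in the former and lowest in the latter. High replicates 1 and 3, the libraries with the most CEBPG, held 437 and 262.16 RPKM of ATF5, whose median was 440.38. The relation of ATF5 and CEBPG was not tested. ATF3, a stress-induced factor downstream of ATF4, had 10.3 ± 4.36 and 10.23 ± 9.07 RPKM. Its highest value, 25.25 RPKM, lay in low replicate 5, the library with the most FGF21, and its lowest, 3.18 RPKM, in low replicate 4. FOS had 15.6 ± 6.09 RPKM in high against 18.7 ± 8.88 in low, and NFE2L2, the regulator of antioxidant genes, had 32.7 ± 2.40 and 35.5 ± 6.28.

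The list of amino acid synthesis genes reported as ATF4 targets had 8 of 11 members found and 6 tested. None passed in either direction, 3 had the higher mean in each direction, and the median log2 fold change was 0.11. GPT2 was the exception in size, with 57.7 ± 19.1 RPKM in high against 22.5 ± 5.38 in low, and it was the member of these lists whose groups did not overlap, where 0.805% of all genes tested had such groups. Its log2 fold change was 1.28 (SE 0.25, adjusted p = 0.961 in limma). GPT2 was known from earlier results of these data and was listed with that in view. CTH, which makes cysteine from cystathionine, had 326 ± 80.6 and 267 ± 118 RPKM.

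The groups overlapped for the enzymes of serine synthesis. PSAT1, the aminotransferase of serine synthesis, measured 2.57, 32.69, 3.02, 33.43 and 31.8 RPKM in high replicates 1 to 5. In low replicates 1 to 5 it measured 32.24, 1.77, 15.29, 44.57 and 22.57 RPKM. The libraries near 2 to 3 RPKM were high replicates 1 and 3 and low replicate 2, the ones with the most CEBPG. The highest was low replicate 4, the one with the least. The same libraries lay at the ends of the leading principal component, with scores of 28.6, 37.2 and 32.6 against -40.5. The relation of PSAT1 to CEBPG or to that axis was not tested. The SD of PSAT1 over libraries, 1.57 on the log2(RPKM + 1) scale, was larger than in 99.7% of the genes tested. PHGDH, the first enzyme of serine synthesis, had 28.2 ± 18.02 RPKM in high against 21.4 ± 12.4 in low, and MTHFD2, a mitochondrial folate enzyme, lay under the filter at 0.360 ± 0.112 and 0.504 ± 0.314 RPKM.

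**Figure D4:**
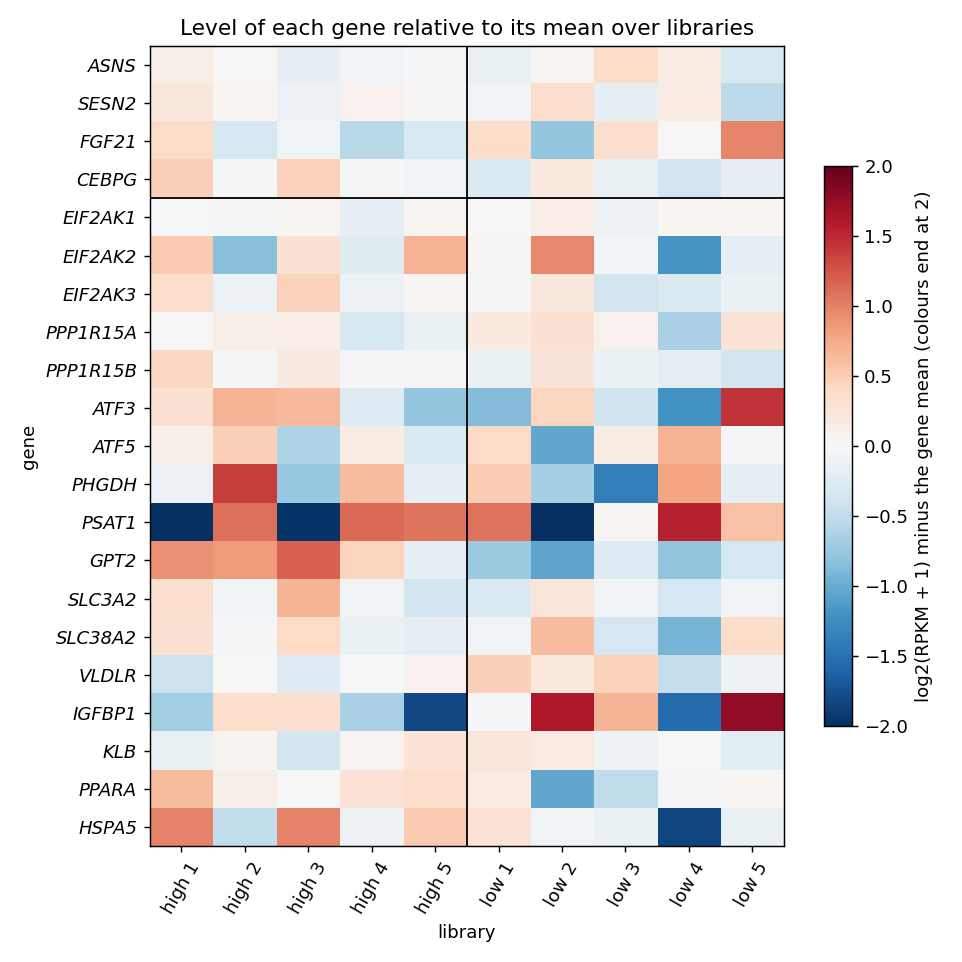
Level of each gene (rows) in each library (columns) as log2(RPKM + 1) minus the mean of that gene over the 10 libraries, red above and blue below, with the members above the horizontal line and high libraries left of the vertical line; colours end at 2 in both directions. PSAT1 is darkest blue in high replicates 1 and 3 and low replicate 2, where CEBPG is red, and the members differ in which libraries are red.

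Of the amino acid transporters, 8 of 10 were found and 4 tested, with 0 passing in either direction, 3 with the higher mean in high and a median log2 fold change of 0.17. The median was 0.024 without low replicate 4, 0.062 without high replicate 3 and 0.30 without low replicate 2. SLC3A2, the heavy chain of several exchangers, had 23.0 ± 7.04 RPKM in high and 19.3 ± 3.42 in low. SLC38A2, a carrier of neutral amino acids that starved cells make more of, had 65.8 ± 12.3 and 63.0 ± 25.0 RPKM. The glutamine carrier gene SLC38A3 had 113 ± 56.7 and 120 ± 26.8 RPKM, and SLC1A5 had 5.27 ± 0.892 and 4.38 ± 1.31. SLC7A11, which imports cystine and is a much used marker of ATF4 activity in cultured cells, was low. It measured 0.1, 0.06, 0.05, 0.81 and 1.06 RPKM in high replicates 1 to 5 and 0.62, 0.26, 0.66, 0.71 and 0.41 in low replicates 1 to 5.

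The cytosolic aminoacyl-tRNA synthetases load amino acids onto transfer RNA. Of 18 genes, 16 were found and 15 tested, 0 passed in either direction, 13 had the higher mean in high, where 48.8% of all genes tested did, and the median log2 fold change was 0.079. The median was -0.0028 without high replicate 1, 0.0019 without low replicate 4 and 0.26 without low replicate 2. The tested members had mean levels from 5.84 to 55.7 RPKM. KARS1 had the highest, 56.8 ± 5.92 RPKM in high and 54.5 ± 8.76 in low, and NARS1 had 38.8 ± 12.0 and 32.5 ± 11.6. EPRS1, which charges glutamate and proline, had the largest log2 fold change of the list, 0.51 (SE 0.25, adjusted p = 0.961 in limma), with 25.3 ± 9.75 and 17.0 ± 4.49 RPKM. That of EPRS1 ran from 0.33 without high replicate 1 to 0.63 without high replicate 4. IARS1 had 8.28 ± 1.73 and 6.50 ± 2.14 RPKM.

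Among the stress effectors 10 of 16 were found and 8 tested, with 0 passing in either direction, 4 with the higher mean in each direction and a median log2 fold change of 0.00067. IGFBP1, a binding protein of insulin-like growth factors that cultured liver cells make more of when short of amino acids, measured 56.39, 117.75, 115.71, 58.4 and 25.54 RPKM in high replicates 1 to 5. In low replicates 1 to 5 it measured 89.44, 282.58, 147.34, 31.04 and 318.15 RPKM. It was highest in low replicates 5 and 2, the libraries with the most and the least FGF21, and its groups overlapped (log2 fold change -0.99, SE 0.62, adjusted p = 0.961 in limma). The log2 fold change of IGFBP1 was -1.50 without low replicate 4 and -0.66 without high replicate 5, and -0.49 without high replicates 1 and 5 together. EIF4EBP1, a repressor of translation initiation, had 25.03 ± 5.79 and 23.9 ± 6.50 RPKM, and XPOT, the exporter of transfer RNA, had 14.2 ± 2.17 and 12.4 ± 2.67. ERO1B, an oxidase of the endoplasmic reticulum, had 13.5 ± 3.37 and 9.81 ± 2.05 RPKM, and VLDLR, a lipoprotein receptor, had 2.29 ± 0.471 and 2.93 ± 1.02.

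For the signalling of FGF21 itself, 6 of 7 genes of its receptors and regulators were found and tested, with 0 passing in either direction, 3 with the higher mean in each direction and a median log2 fold change of 0.088. KLB, the coreceptor that FGF21 requires, had 1.54 ± 0.408 RPKM in high and 1.61 ± 0.340 in low. FGFR4, the main FGF receptor of hepatocytes, had 13.3 ± 5.62 and 13.6 ± 2.19 RPKM. PPARA, which drives FGF21 during fasting in mice, had 31.4 ± 5.52 and 21.8 ± 6.92 RPKM (log2 fold change 0.56, SE 0.22, adjusted p = 0.961 in limma), with its mean higher in high where that of FGF21 was higher in low. The log2 fold change of PPARA was 0.36 without low replicate 2. PPARA was lowest, at 11.82 RPKM, in low replicate 2, the library with the least FGF21. PPARGC1A, a coactivator of gluconeogenesis and mitochondrial genes, had 4.84 ± 1.06 and 3.97 ± 1.26 RPKM.

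The arm of endoplasmic reticulum stress that runs through ATF6 and XBP1, and not through ATF4, served for comparison. Of its 14 genes 9 were found and tested, and 0 passed in either direction. All 9 had the higher mean in high, where 48.8% of all genes tested did, and the median log2 fold change was 0.57. These genes are not separate observations. HSPA5, HYOU1, HSP90B1 and DNAJB9 were each highest in high replicates 1 and 3 and lowest in low replicate 4. HSPA5 had 750 ± 314 RPKM in high and 453 ± 183 in low, HYOU1 had 137 ± 62.1 and 76.4 ± 29.3, and DNAJB9 had 94.9 ± 18.1 and 65.9 ± 13.3. HSP90B1 had 625 ± 199 and 476 ± 207 RPKM, and PDIA4 had 351 ± 68.9 and 296 ± 112. The median was 0.40 without low replicate 4. That the list differs from those of the ATF4 response was not tested.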

How the data were processed

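Liver RNA of 10 samples was sequenced. Per the labels' protocols, RNA integrity lay between 7.1 and 8.1 and unstranded TruSeq libraries were run 3 to a lane; lane and group cannot be told apart, since the lanes are not given. Reads were placed on Sscrofa10.2, per the submitters' processing notes; aligner and counter are not stated.

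The authors deposited RPKM values, a signed fold and a p-value per gene, per the file headers; the test behind the p-value is not stated. Dots that group digits, in 624 deposited values, were removed. These are not counts, so the count test that was planned only for count data was not needed. A table of a later annotation gave symbols to 11779 of 25009 identifiers, and no coordinates are used.

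limma 3.58.1 in R 4.3.3 was fitted to log2(RPKM + 1), which understates changes of low genes, with trend and no covariate, for means of 1 RPKM or more, two-sided, threshold 0.05; the fit was tested on simulated data. Correlations used 100000 permutations, or all orders where fewer than 10 libraries remained, adjusted within each family. Absolute depth is unknown, so no counting interval is given. Replicate numbers follow accession order and pair nothing.

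The members and lists were chosen with earlier results of these data known. Named genes were the members found, a fixed set, and per list the 3 highest by mean RPKM and the 2 smallest by p; the look at CEBPA beside CEBPG came after values were seen. A gene that the rule named is not reported here, and none took its place. Alternatives were other scalings, pseudocounts and filters, no trend, and leaving out libraries.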

Additional observations from a re-analysis of the deposited data

Results flagged for a closer look

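In each group of 5 libraries the highest and lowest value was compared with the nearest other value. Of 88 groups examined over the named genes, 3 held a library that stood apart, where chance gives about 1 in 20, and none of them concerned ASNS, SESN2, FGF21 or CEBPG. PPP1R15A, the stress-induced phosphatase subunit, measured 3.91 RPKM in low replicate 4, far below the next value of 7.14 in its group. SLC1A5 measured 6.86 RPKM in high replicate 3, above the next value of 5.01. FGFR4 measured 17.39 RPKM in low replicate 4, above the next value of 13.37.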

How the results depend on the processing

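No gene passed in any setting (0 over all genes, 0 members, 0 genes of the lists), and the smallest adjusted p in limma was 0.226, without high replicate 5; unadjusted, 497 genes lay under 0.05 with all libraries. CEBPG kept a positive log2 fold change (0.25 to 0.42 leaving out 1 library) and FGF21 a negative one (-0.61 to -0.17). No paired analysis was possible because the labels give no replicate numbers that the groups share. The number of member pairs whose correlation passed was 0 with all libraries, 1 without high replicates 1 and 5 together, and 0 to 1 leaving out 1 library. With HSPA5 and GPT2 it was 0 to 2 leaving out 1 library. These p-values were adjusted within each setting and not over the settings.

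Some small values changed sign, for causes that were not tested. Without high replicates 1 and 5 together the log2 fold change was -0.17 for EIF2AK2, 0.22 for SLC38A3, -0.0056 for KARS1 and 0.060 for FGFR4. The Pearson r of ASNS and CEBPG was 0.039 with group means removed. That of FGF21 and CEBPG was 0.039, and that of SESN2 and GPT2 0.097, without the 2 farthest libraries. FGF21 and GPT2 had 0.045 with median-ratio scaling, 0.030 with a pseudocount of 0.1 and 0.56 with group means removed.

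Leaving out 1 library, the log2 fold change ran from -0.014 to 0.21 for SESN2, -0.099 to 0.44 for EIF2AK2, -0.029 to 0.63 for ATF3, -0.33 to 0.098 for ATF5, -0.98 to 0.18 for PSAT1, -0.076 to 0.31 for SLC38A2, -0.12 to 0.041 for KLB and -0.42 to 0.036 for SLC38A3. It ran from -0.0060 to 0.15 for KARS1, -0.079 to 0.18 for EIF4EBP1, -0.28 to 0.040 for FGFR4, and the difference from -0.13 to 0.045 for ASNS. The list medians ran from 0.019 to 0.19 for the eIF2 list, -0.087 to 0.052 for the leucine zipper factors, -0.0098 to 0.27 for amino acid synthesis, -0.10 to 0.056 for the stress effectors, -0.032 to 0.15 for the signalling of FGF21 and 0.40 to 0.78 for the ATF6 and XBP1 arm. Pearson coefficients ran from -0.22 to 0.16 for ASNS and CEBPG, -0.50 to 0.28 for ASNS and FGF21, -0.040 to 0.16 for FGF21 and HSPA5, -0.37 to 0.089 for FGF21 and GPT2, -0.24 to 0.062 for ASNS and GPT2, -0.26 to 0.25 for SESN2 and GPT2, and -0.25 to 0.18 for SESN2 and HSPA5. ASNS and FGF21, with values near 1 RPKM given to 2 decimals, rest on few reads at an unknown depth.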
